A study of Mus musculus with 14 samples.

Results

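The stretch and mechanical stress response genes examined here are Nrap, Xirp1, Xirp2, Flnc, Ankrd1, Ankrd2, Ankrd23, Csrp3, Fhl1 and Ky. They were taken by gene symbol, and all 10 were found among the 49585 genes measured. Their RNA was measured in hind limb muscle of wild-type (WT) mice and of mice with a knockout (KO) of Myf6, each without or after an injury, which makes 4 groups of 3 libraries. Myf6 (MRF4) is one of the myogenic regulatory factors, transcription factors that drive muscle differentiation. The labels used here do not give the KO allele, the strain, age or sex of the mice, the kind of injury or the time after it. Library labels combine a number with L (uninjured) or R (injured), and each genotype uses 3 numbers for both states, so a number is read here as 1 animal. No number is shared by the genotypes, and genotype and litter or batch cannot be told apart. A list of Flag-Myf6 ChIP-seq peaks came from 1 library and 1 control of primary myotubes, the fused cells made in culture from satellite cells of adult muscle, so it has no replicate check and is from another cell state than the muscle RNA.

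A muscle fibre carries force along its myofibrils and out to the membrane and the tendon, and it holds proteins that sense or bear that load at the Z-disc, the titin spring and the membrane attachments. The muscle ankyrin repeat proteins Ankrd1, Ankrd2 and Ankrd23 bind titin and also enter the nucleus, and their genes are known to respond to stretch, loading and muscle damage. The Xin repeat proteins, filamin C and Nrap bind actin where myofibrils are anchored or repaired, while the LIM proteins Csrp3 and Fhl1 sit at the Z-disc and on titin. Ky is a protease-like protein of the Z-disc that binds filamin C.

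In myotubes, Flag-Myf6 peaks lay near most of these genes. A start site in RefSeq (GRCm38.p6) was listed for 9 of the 10 genes, Xirp1 having none in that table, and 7 of the 9 had a peak summit within 10 kb of a start. The same held for 1745 of 9488 expressed genes with a listed start, or 18.4%. Within 2 kb there were 4 of 9 genes (6.22% of all), namely Ankrd1, Ankrd2, Ankrd23 and Ky. Within 50 kb there were again 7 of 9, against 52.5% of all genes. Peaks with a fold enrichment of at least 10 within 10 kb were found at 3 of 9 genes, Ankrd2, Csrp3 and Flnc, against 4.95% of all. A high share was not limited to these genes. It was 18 of 27 for genes of titin, Z-disc and adhesion partner proteins, 6 of 8 for fast fibre genes and 8 of 9 for slow fibre genes. Nor was it limited to fibre genes, with 9 of 16 for YAP, TEAD, SRF and MRTF pathway genes, 3 of 5 for smooth muscle and 2 of 2 for Schwann cell genes. Shares were lower for endothelial (1 of 5), macrophage (1 of 4) and adipocyte genes (1 of 6), and 0 of 5 each for fibroblast and tendon genes.

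Ankrd1 and Ankrd2 each had a peak across the promoter. The Ankrd1 peak, chr19:36119898-36120229, had its summit 277 bases before the start, with the authors' fold enrichment of 6.95. Ankrd2 had 3 peaks within 10 kb, with summits 4724 and 276 bases before and 1250 bases after the start and fold enrichments of 16.8, 11.5 and 8.57. For comparison, the median fold enrichment of all 12898 peaks was 7.68. The stretches below are the parts of these promoter peaks that fall in the RefSeq promoter windows and before the first base of the RefSeq gene entry, and are shown because they hold the letters of an E-box (CANNTG, the class of site that myogenic factors bind) under a Flag-Myf6 peak. Capitals mark E-boxes and, in Ankrd1, the M-CAT letters CATTCC that TEAD factors bind, both read here as GGAATG on the other strand. The Ankrd1 stretch is chr19:36119898-36120094 on the minus strand, from 250 to 54 bases before the start, and the Ankrd2 stretch is chr19:42035777-42035916 on the plus strand, from 250 to 111 bases before it. The Ankrd2 peak runs on to 42035949, past the first base of the gene entry at 42035917, and that last part is not printed. Neither stretch holds the summit of its peak, since the windows begin 250 bases before the start and the summits lie at 277 and 276 bases. The marked E-boxes are thus under the peak but away from its summit.
Ankrd1: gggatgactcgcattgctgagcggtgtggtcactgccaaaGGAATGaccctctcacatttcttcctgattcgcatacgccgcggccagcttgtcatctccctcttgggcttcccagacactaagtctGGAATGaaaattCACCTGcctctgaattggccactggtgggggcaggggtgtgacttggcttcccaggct
Ankrd2: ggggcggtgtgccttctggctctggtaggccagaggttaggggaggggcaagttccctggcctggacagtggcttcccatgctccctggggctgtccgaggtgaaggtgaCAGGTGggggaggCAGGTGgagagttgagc

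The Ankrd1 stretch holds 1 E-box, which begins 111 bases before the start, and 2 M-CAT matches, at 210 and 123 bases before it. The printed Ankrd2 stretch holds a pair of E-boxes, at 140 and 127 bases before the start, and 1 more under the same peak, 96 bases before the start, lies in the part not printed. Such letters are common. Over the 300-base promoter windows of all 9488 genes, 67.8% hold a CANNTG and 14.6% a CATTCC on either strand, counting a gene with several windows once. Among the members, 8 of 9 had an E-box, all but Flnc, and 3 of 9 an M-CAT match, Ankrd1, Ankrd23 and Flnc. A match describes letters only.

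The other peaks lay in the first part of the gene or farther off. Ankrd23 had 1 peak within 10 kb of its starts, 648 bases after the first start and 169 bases before the second, with a fold enrichment of 4.08, below the median of all peaks. The Ky peak lay 1231 bases before the start (fold 8.09) and the Nrap peak 2054 bases after it (fold 6.77). Flnc had a peak 2928 bases after its first start, with a fold enrichment of 16.2, and another 6337 bases after it. Csrp3 had a peak inside the gene, 8918 bases after its second listed start (fold 14.1). Its strongest neighbour, 22288 bases before the first start, reached a fold of 34.2 but lay nearer to the start of another gene entry, 7.70 kb away. For Xirp1 the gene's span in the RefSeq table, chr9:120013755-120023598, was used, without regard to strand. The nearest summit lay 753 bases past the higher coordinate of the span, with a fold of 10.5. With spans in place of starts, a measure added after the data were seen, 8 of 10 members had a summit in the gene or within 10 kb, against 36.1% of 12008 genes. Xirp2 and Fhl1 had none, the nearest summit lying 300.73 kb from the Xirp2 start and over 2776 kb from either Fhl1 start.

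**Figure D1:**
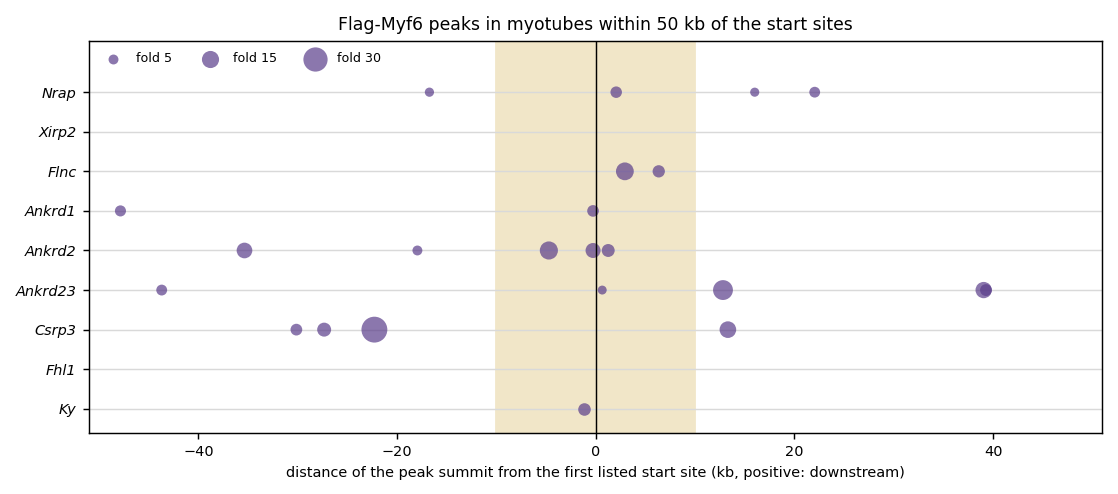
Each point is the summit of a Flag-Myf6 peak in myotubes, placed by its distance in kb from the first RefSeq start of the gene, with the area of the point in proportion to the authors' fold enrichment; the shaded band marks 10 kb on either side. Of the 9 genes with a listed start, Xirp2 and Fhl1 have no point, and Ankrd1, Ankrd2, Ankrd23 and Ky have one within 2 kb. The Csrp3 peak within 10 kb of the second start lies 13.3 kb from the first, and so outside the band.

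The libraries held 1880087 to 49392472 reads, and 3 reads, taken as the detection floor, correspond to 0.0607 to 1.60 RPM (reads assigned to a gene, scaled to 1000000 per library). Myf6 was at 46.2, 25.0 and 111 RPM in uninjured WT and 1.86, 3.46 and 2.27 RPM in uninjured KO, and at 47.9, 121 and 72.5 RPM in injured WT and 3.32, 2.88 and 3.02 RPM in injured KO, as the labels say. Skeletal muscle fibre markers were high in every library, with Acta1 at 14358 to 33789 RPM, as in muscle tissue. Of 14 regenerating fibre genes, 1 was at 0 in all 3 uninjured KO libraries and none in the other groups. Their summed level was 909 to 1479 RPM in uninjured and 1573 to 2349 RPM in injured WT, and 1515 to 3055 and 993 to 3085 RPM in KO. Most of these sums was Myh8 alone. It was at 646 to 1019 RPM in uninjured and 1038 to 1762 RPM in injured WT, and 1246 to 2322 and 778 to 2173 RPM in KO. Myh3, the embryonic myosin gene, stayed at or below 5.35 RPM in all 12 libraries. Mitochondrial genes took 18.1, 22.3 and 13.8% of the reads in uninjured WT replicates 1 to 3, 6.76, 15.3 and 3.63% in uninjured KO, 12.5, 8.35 and 14.8% in injured WT and 4.95, 23.2 and 4.30% in injured KO. In bulk muscle, fewer cells of a type and less RNA per cell cannot be told apart.

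KO and WT were first compared without injury, to see which genes differ when Myf6 is missing. The highest estimates among the members were those of Nrap, Ankrd23, Ankrd1, Xirp1 and Xirp2, between 1.61 and 2.61 times the WT level on the scale of RPM + 1. No member passed the test, limma on log2(RPM + 1) with a Benjamini-Hochberg adjusted p under 0.05 over all genes, which 35 of 12460 genes (0.281%) passed. The estimate was higher in KO for 9 of 10 members, with a median difference of 0.48 on the log2 scale, where 36.8% of all genes had a higher estimate and the median was -0.18. A higher estimate was not limited to the members. It was found for 8 of 10 skeletal muscle fibre genes (median 0.41) and 8 of 10 fast fibre genes (median 0.32). At an unadjusted p under 0.05, 4 of 10 members were higher in KO, against 3.53% of all genes. All 3 KO libraries lay above all 3 WT libraries for 3 of 10 members, Ankrd1, Xirp1 and Xirp2, as for 6.20% of all genes.

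Nrap encodes the nebulin-related anchoring protein, which helps to assemble myofibrils and link them to the membrane. It (ENSMUSG00000049134.15) was at 228, 194 and 324 RPM in uninjured WT and at 715, 298 and 1201 RPM in uninjured KO. KO replicates 1 and 3 were above every WT library, while KO replicate 2 lay among them. The difference was 1.38 on the log2 scale (SE 0.47, 95% interval 0.33 to 2.44), with a limma adjusted p of 0.229. It ranged from 0.92, without KO replicate 3, to 1.93, without KO replicate 2.

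Xirp1 and Xirp2 encode the Xin repeat proteins, which bind actin at the myotendinous junction and at sites of fibre damage. Xirp1 (ENSMUSG00000079243.3) was at 45.0, 26.1 and 56.9 RPM in uninjured WT and 78.6, 62.9 and 117 RPM in uninjured KO. The groups did not overlap, and the difference was 1.02 (SE 0.36, 95% interval 0.20 to 1.84, limma adjusted p 0.248). Xirp2 (ENSMUSG00000027022.13) was at 980, 845 and 1061 RPM in WT and 1314, 1361 and 2051 RPM in KO. Here too every KO library was above every WT library, with a difference of 0.69 (SE 0.27, 95% interval 0.08 to 1.30, limma adjusted p 0.293).

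Flnc encodes filamin C, the actin cross-linker of the Z-disc. It (ENSMUSG00000068699.12) was at 197, 193 and 201 RPM in uninjured WT and at 209, 164 and 393 RPM in uninjured KO. The WT libraries were nearly equal (196.8 ± 4.37 RPM, SD, n = 3), and the higher KO mean (255 ± 122 RPM, SD, n = 3) came from replicate 3. Its difference of 0.27 (SE 0.33, limma adjusted p 0.759) became -0.09 without that library.

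The titin-binding ankyrin repeat genes differed from each other. Ankrd1 (ENSMUSG00000024803.8), also known as CARP, was at 2.54, 1.60 and 0.593 RPM in uninjured WT, which rest on 79, 3 and 18 reads, and at 4.03, 5.12 and 3.97 RPM in uninjured KO, on 106, 65 and 170 reads. All KO libraries were above all WT libraries, though WT replicate 2 was at its detection floor. The difference was 1.13 (SE 0.41, 95% interval 0.21 to 2.05, limma adjusted p 0.252), and 1.17 without WT replicate 2. Ankrd23 (ENSMUSG00000067653.12) was at 5.99, 3.19 and 7.25 RPM in WT and 7.68, 3.70 and 64.2 RPM in KO. A single library, KO replicate 3, stood apart, and the other KO libraries were within or close to the WT range. The estimate of 1.15 had an SE of 0.84 (limma adjusted p 0.577). Ankrd2 (ENSMUSG00000025172.2) was at 80.1, 60.6 and 55.0 RPM in WT and 49.7, 68.9 and 83.6 RPM in KO, with overlapping groups and a difference of 0.03 (SE 0.29, 95% interval -0.63 to 0.69). 

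Of the LIM protein genes, Csrp3 (ENSMUSG00000030470.15), which encodes the muscle LIM protein of the Z-disc, was at 102, 54.8 and 76.4 RPM in uninjured WT and 46.5, 115 and 121 RPM in uninjured KO. Fhl1 (ENSMUSG00000023092.16), whose protein binds titin, was at 279, 159 and 458 RPM in WT and 255, 106 and 986 RPM in KO. Both groups overlapped in both genes. The differences were 0.20 (SE 0.41) for Csrp3 and 0.13 (SE 0.72) for Fhl1, with limma adjusted p values of 0.865 and 0.959. Ky (ENSMUSG00000035606.8) was the only member with a lower estimate in KO, at 188, 149 and 245 RPM in WT and 154, 96.7 and 170 RPM in KO. The groups overlapped, and the difference was -0.48 (SE 0.31, limma adjusted p 0.519).

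**Figure D2:**
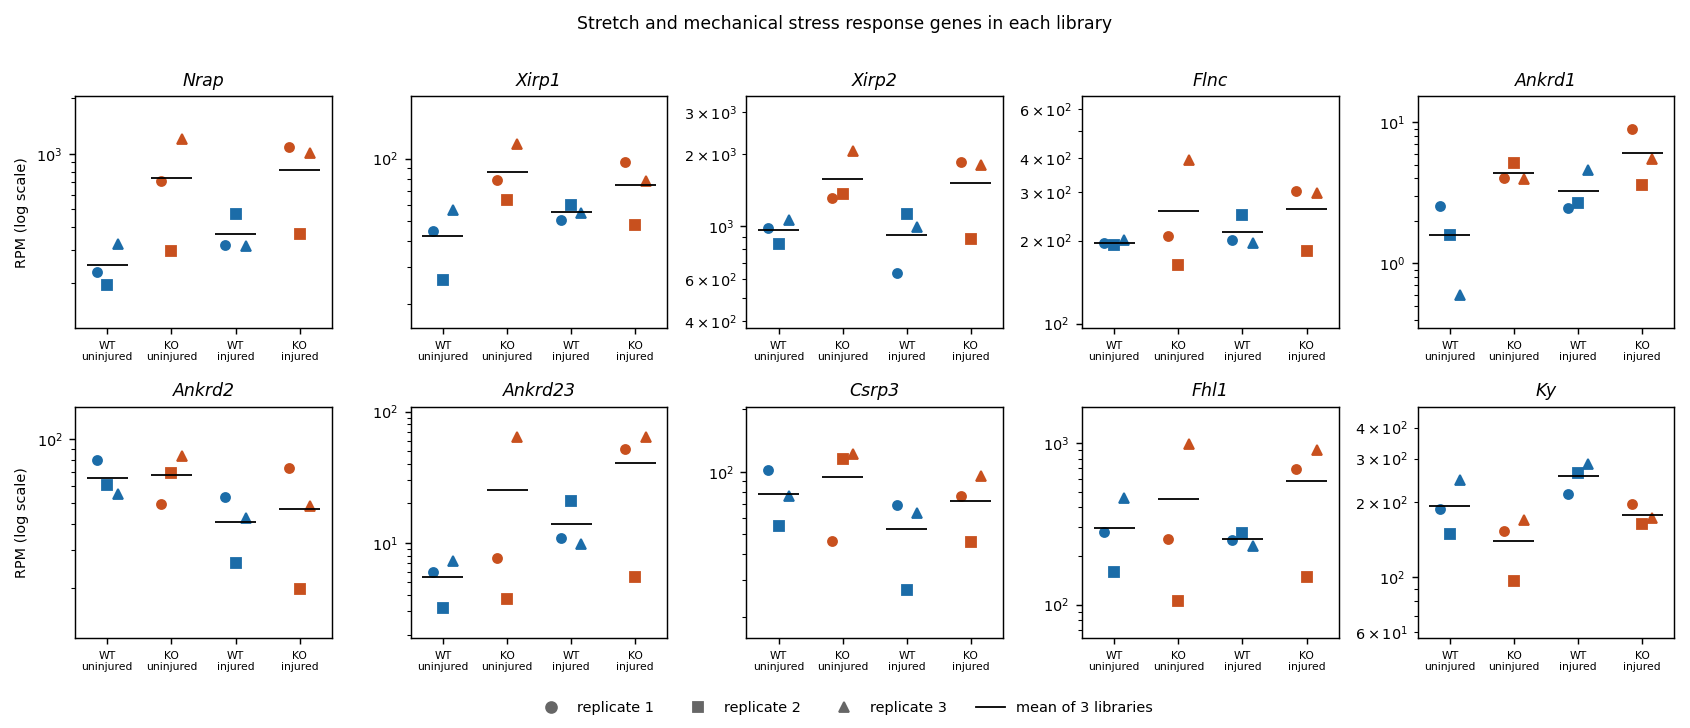
RPM of each gene in each library on a log axis, by group, with WT in blue, KO in orange, the replicate number as the shape of the point and a line at the mean of the 3 libraries. KO replicate 2 is a low KO library for Nrap, Ankrd23 and Fhl1 in both uninjured and injured muscle, and Ky is the gene whose KO libraries lie lowest relative to WT.

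Whether the uninjured differences passed depended on the model. In the authors' deposited table, with q-values under 0.05 for 169 of 23129 genes higher in KO (0.731%), Nrap (WT over KO log2 fold change -1.67, q 0.00125) and Xirp1 (-1.20, q 0.0218) passed, and Xirp2 (-0.91, q 0.0797), Ankrd23 (-2.17, q 0.164) and Ankrd1 (-1.76, q 0.495) did not. With DESeq2 on the recovered reads, 3 of 10 members passed, all higher in KO, against 2.74% of genes. They were Nrap (1.66, DESeq2 adjusted p 0.000236), Xirp1 (1.19, 0.00293) and Xirp2 (0.90, 0.0121). With edgeR's quasi-likelihood test on the same reads none passed, although the estimates were alike (1.66, 1.19 and 0.90). With the title replicate number as a block in limma, 2 of 10 members passed, Nrap (limma adjusted p 0.0127) and Xirp1 (0.0253), against 1.45% of genes higher in KO, although these numbers join different animals. The mitochondrial share was lowest in KO replicates 3 and 1, where Nrap was highest. With reads scaled to those outside mitochondrial genes the differences of Nrap, Ankrd1, Xirp1 and Xirp2 were 1.23, 1.06, 0.87 and 0.53, and the median of all genes was -0.32. With TMM scaling they were 1.62, 1.29, 1.26 and 0.93, and that median was 0.02.

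After injury KO and WT were compared again, in the same animals. None of the 10 members passed, against 34 of 12625 genes (0.269%) that did. Estimates were higher in KO for 9 of 10 members, with a median difference of 0.59, against 52% of all genes and a median of 0.02. Among skeletal muscle fibre genes 7 of 10 were higher (median 0.19), and among fast fibre genes 3 of 10 (median -0.10). At an unadjusted p under 0.05, Nrap was higher and Ky lower, 2 of 10 members against 10.3% of all genes. None passed in the authors' deposited table either, where 0.893% of 25201 genes had a q-value under 0.05 and the lowest member q was 0.596, for Nrap.

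Nrap was at 320, 470 and 315 RPM in injured WT and 1082, 369 and 1005 RPM in injured KO. KO replicates 1 and 3 were above all WT libraries and KO replicate 2 was between them, as in the uninjured muscle of these animals. The difference was 1.03 (SE 0.43, 95% interval 0.00 to 2.05, limma adjusted p 0.483). Ky was at 216, 262 and 286 RPM in injured WT and 197, 163 and 172 RPM in injured KO. Every KO library lay below every WT library, as for 8.63% of all genes, and no other member separated the genotypes in injured muscle. The Ky difference was -0.51 (SE 0.18, 95% interval -0.94 to -0.08, limma adjusted p 0.414).

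Ankrd23 was at 10.9, 20.9 and 9.72 RPM in injured WT and 52.1, 5.53 and 64.3 RPM in injured KO, and Fhl1 at 251, 277 and 232 RPM in WT and 687, 148 and 898 RPM in KO. In both genes KO replicates 1 and 3 were above all WT libraries and KO replicate 2 was below them all. Xirp2 was at 638, 1121 and 991 RPM in injured WT and 1852, 882 and 1798 RPM in injured KO, and Xirp1 at 50.9, 59.8 and 54.7 RPM in WT and 96.6, 48.1 and 78.1 RPM in KO. Replicate 2 was again the lowest KO library of both Xin genes. Ankrd1 was at 2.48, 2.70 and 4.59 RPM in WT and 8.97, 3.60 and 5.49 RPM in KO, with a difference of 0.68 (SE 0.34, limma adjusted p 0.549). Flnc, Csrp3 and Ankrd2 had differences of 0.25 (SE 0.25), 0.50 (SE 0.42) and 0.09 (SE 0.49).

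Injured KO replicate 2 had the highest mitochondrial share of all 12 libraries, 23.2%, and only 1 of 10 members was above its own 12-library median there. Without this library 5 of 10 members passed, all higher in KO, against 1168 of 12312 genes (9.49%) that passed higher in KO. They were Ankrd23 (2.06, limma adjusted p 0.00979), Fhl1 (1.63, 0.00381), Nrap (1.53, 0.00754), Xirp2 (1.03, 0.0316) and Xirp1 (0.65, 0.0289). With any other single library left out no member passed. Injured KO replicate 2 also differed in marker sums of other cells. Schwann cell genes summed to 1822 RPM there, against 329 and 486 RPM in injured KO replicates 1 and 3. Endothelial genes summed to 584 RPM, against 340 and 312 RPM, while macrophage genes, at 99.3 RPM, lay between 95.6 and 102 RPM. The part of the mitochondrial share or of cell content in this result was not tested.

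**Figure D3:**
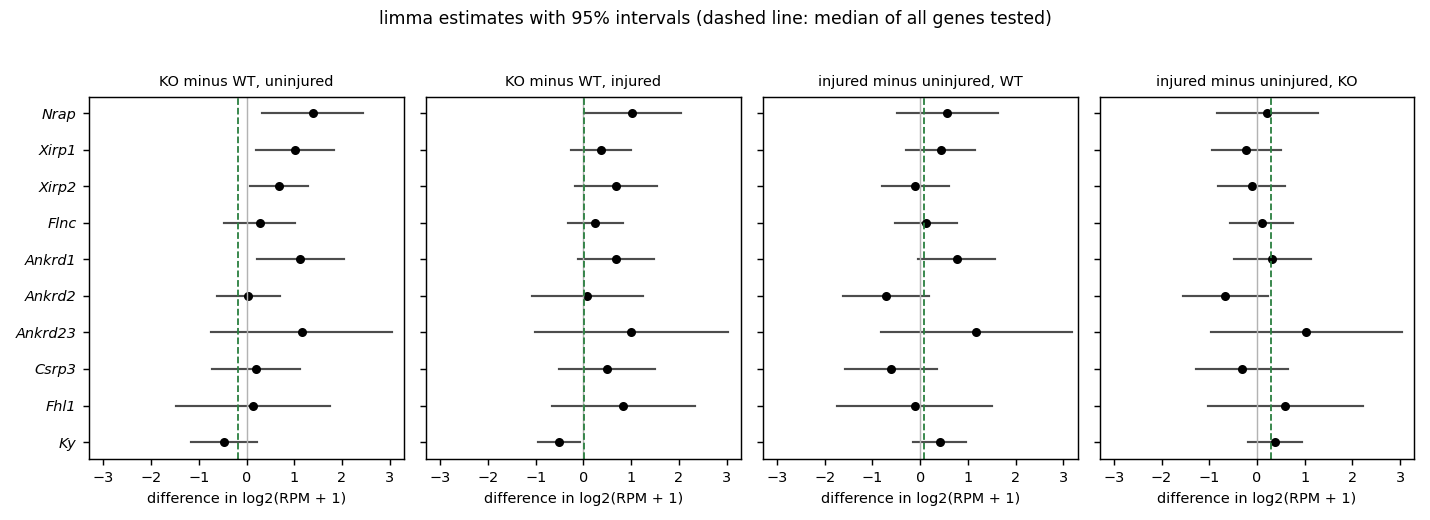
limma estimates of the difference in log2(RPM + 1) for each gene, with 95% intervals, in 4 comparisons; the dashed line is the median of all genes tested. For uninjured muscle the intervals of Nrap, Xirp1, Xirp2 and Ankrd1 lie above 0. For injured muscle that of Ky lies below 0 and that of Nrap only just above it, with a lower end of 0.0027.

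Injured and uninjured muscle were compared within each genotype to ask how the genes respond to injury. Of 13337 genes tested none (0.0%) passed in WT and none (0.0%) in KO, so no member did. This limma fit does not pair libraries by animal. It gave unadjusted p values under 0.05 for 172 genes in WT and 468 in KO, with no member in either. With the animal number as a block, Ankrd23 in WT (unadjusted limma p 0.0398) was among 319 such genes, and no gene passed in WT. In KO the lowest unadjusted member p with the block was 0.066, for Ankrd23. DESeq2 and edgeR also called no gene in either genotype. Estimates were higher after injury for 6 of 10 members in each genotype, against 62.4% of all genes in WT and 80.9% in KO. The member medians were 0.27 in WT and 0.16 in KO, against 0.09 and 0.29 over all genes.

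Ankrd23 and Ky were higher in the injured than in the uninjured library in 6 of 6 animals, a pattern that 3.76% of genes had. For Ankrd23 the changes were 0.77, 2.39 and 0.38 on the log2 scale in WT animals and 2.61, 0.48 and 0.002 in KO animals, so the third KO animal hardly moved. The WT change of 2.39 starts from 6 reads in uninjured WT replicate 2, the shallowest library. For Ky they were 0.20, 0.81 and 0.22 in WT and 0.35, 0.75 and 0.03 in KO. Within WT all 3 injured libraries were above all 3 uninjured ones for Ankrd23, as for 7.48% of genes. The fitted changes were 1.18 (SE 0.93) in WT and 1.03 (SE 0.93) in KO for Ankrd23, and 0.41 (SE 0.26) and 0.38 (SE 0.26) for Ky. With the animal number as a block the SE was 0.50 for Ankrd23 and 0.21 for Ky in each genotype.

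Ankrd2 and Csrp3 had the opposite sign in most animals. Ankrd2 was at 80.1, 60.6 and 55.0 RPM in uninjured and 53.2, 26.1 and 42.4 RPM in injured WT, and each injured library was below all uninjured ones, as for 2.54% of genes. In KO it was at 73.2, 19.7 and 48.5 RPM after injury, lower in 2 of 3 animals. The fitted changes were -0.71 (SE 0.41) in WT and -0.66 (SE 0.41) in KO. Csrp3 was at 69.1, 26.8 and 63.3 RPM in injured WT, lower than the uninjured library in 3 of 3 animals, and at 76.5, 45.9 and 95.6 RPM in injured KO, lower in 2 of 3. Its changes were -0.61 (SE 0.44) and -0.31 (SE 0.44). The animal block gave SEs of 0.36 for Ankrd2 and 0.32 for Csrp3 in each genotype. Nrap, Ankrd1 and Flnc were higher after injury in 4 of 6 animals, Xirp1 and Fhl1 in 3 and Xirp2 in 2. In KO no member separated injured from uninjured libraries, which 6.74% of genes did.

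The interaction asked whether the injury change differed between the genotypes. None of 13337 genes (0.0%) passed, by limma, DESeq2 or edgeR. No member was among the 208 genes that limma gave an unadjusted p under 0.05. The member with the lowest p was Xirp1, whose change in KO minus that in WT was -0.65 (SE 0.47, 95% interval -1.67 to 0.37, limma adjusted p 0.9999). This limma fit, with 3 animals a genotype, does not pair libraries by animal. For Ankrd23 its interval ran from -2.98 to 2.69 (SE 1.31), which holds even large differences in the injury response. With the animal number as a block in limma the SE for Ankrd23 was 0.71 (adjusted p 0.984).

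**Figure D4:**
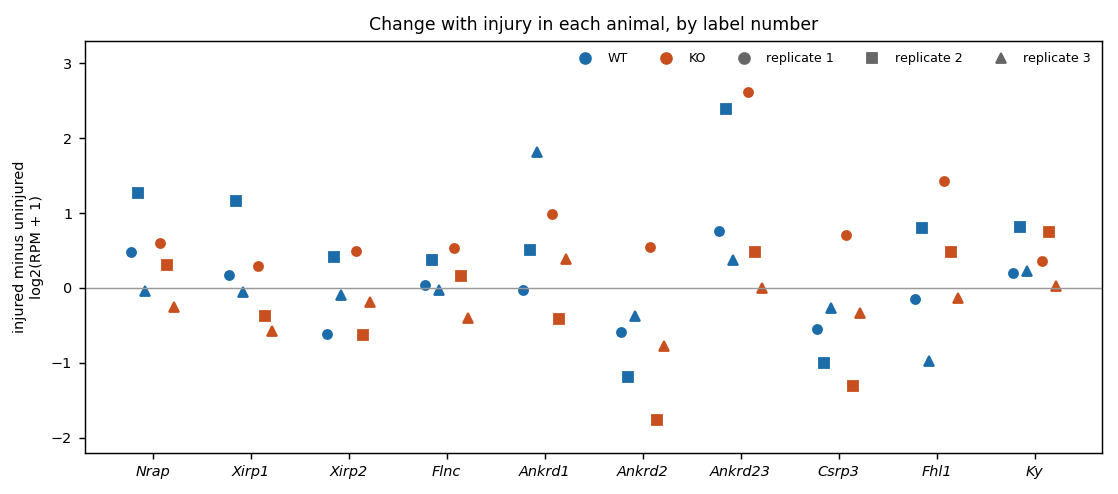
Change in log2(RPM + 1) from the uninjured to the injured library of each animal, by label number, with WT in blue and KO in orange and the replicate number as the shape. The 6 animals lie at or above 0 for Ankrd23 and Ky, and the WT animals lie below 0 for Ankrd2 and Csrp3.

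Across the 12 libraries the members moved largely by library. Uninjured KO replicate 3 had the highest value of 7 of 10 members and 9 above their 12-library median. Injured KO replicate 1 had all 10 above it and injured KO replicate 3 had 8. At the other end, uninjured WT replicate 2, the shallowest library, and injured KO replicate 2 had 1 each. The summed RPM of the members was 2108, 1686 and 2486 in uninjured WT, 2832, 2281 and 5191 in uninjured KO, 1812, 2516 and 2194 in injured WT, and 4427, 1869 and 4464 in injured KO. The libraries with sums of 5191, 4464 and 4427 RPM were those with the lowest mitochondrial shares, 3.63, 4.30 and 4.95%. The highest value of a gene was 2.40 (Flnc) to 20.1 (Ankrd23) times its lowest. Ky and Flnc varied least by this ratio (2.96 and 2.40), and Ankrd23 and Ankrd1 most (20.1 and 15.1).

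**Figure D5:**
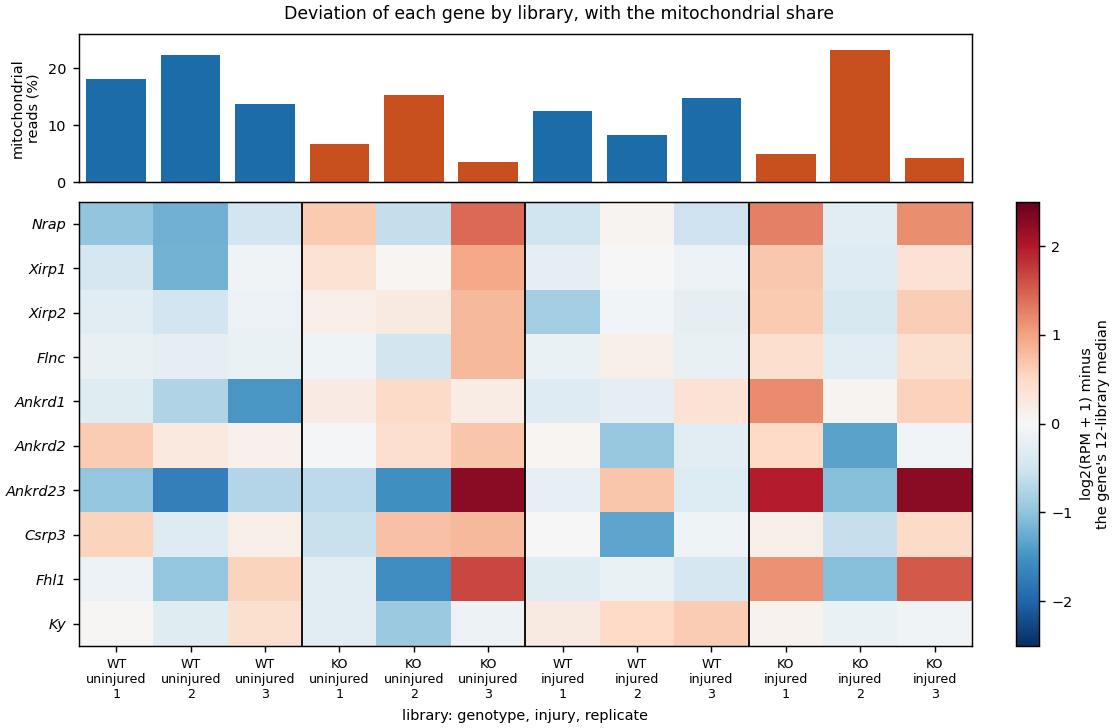
Upper panel, share of reads on mitochondrial genes in each library (%), WT in blue and KO in orange; lower panel, log2(RPM + 1) of each gene minus its mean over the 12 libraries, in colour. The colour scale is labelled median, but the values drawn are deviations from the mean. Uninjured KO replicate 3 and injured KO replicates 1 and 3 are mostly above the means (red) and have the lowest mitochondrial shares, while injured KO replicate 2 is mostly below (blue) and has the highest.

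Other genes shared these library patterns. For the members other than Xirp2, the gene with the highest Pearson r of log2(RPM + 1) over the 12 libraries was sought among 7131 genes with a mean of at least 10 RPM. It was Tnip1 for Nrap (0.98), Smarcc2 for Xirp1 (0.96), Ppp6r2 for both Ankrd23 (0.98) and Flnc (0.97), Atp1b1 for Fhl1 (0.98) and Nit2 for Ky (0.97). The closest genes to Ankrd1, Ankrd2 and Csrp3 were less alike, Zdhhc8 (0.87), Plbd1 (0.83) and Eif2s3x (0.70). These are the highest of many coefficients over libraries that share animals and depth, and describe these libraries only.

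Genes of proteins that bind or flank the members at titin, the Z-disc and the adhesions were examined as a list of 39, of which 38 were tested. None passed in either KO comparison, and 24 and 23 of 38 had a higher estimate in KO in uninjured and injured muscle, with medians of 0.24 and 0.11. In uninjured muscle the lowest p values were those of Des, Actn3 and Synpo2l. Des, the desmin gene, was at 2827, 2452 and 2570 RPM in WT and 5219, 5116 and 5281 RPM in KO, close within each genotype. Its difference was 0.99 (SE 0.24, limma adjusted p 0.137). For Actn3, the fast fibre alpha-actinin of the Z-disc, the difference was 0.98 (limma adjusted p 0.189), and for Synpo2l 0.69 (0.218). All 3 passed with DESeq2, with adjusted p values of 0.00101, 0.0115 and 0.0206. In injured muscle the lowest were Csrp1 (1.17, limma adjusted p 0.191), Hspb8 (-0.59, 0.404) and Myoz2 (1.81, 0.407), of which Csrp1 (1.19, adjusted p 0.00184) and Myoz2 (2.19, 0.00944) passed with DESeq2. Both also passed limma without injured KO replicate 2 (adjusted p 0.0265 and 0.00138). The summed level of the list was 28227 to 31142 RPM in uninjured WT and 44270 to 45338 RPM in uninjured KO. After injury the genotypes overlapped, at 30992 to 34000 RPM in WT and 30919 to 44186 RPM in KO, the lowest being KO replicate 2. Abundant genes weigh most in such a sum. Means in uninjured WT and KO were 6757 and 13280 RPM for Actn3 and 4111 and 8284 RPM for Tcap.

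Regulators and targets of the YAP, TEAD, SRF and MRTF pathways, through which cells transmit mechanical load to transcription, were examined as a further list. Of 25 genes 24 were tested and none passed in either comparison, with 5 of 24 estimates higher in KO and a median of -0.37 in uninjured muscle (all genes 36.8% and -0.18), and 11 of 24 and -0.04 in injured muscle (all genes 52% and 0.02). Ctgf, a YAP target, was at 37.8, 28.2 and 22.0 RPM in uninjured WT and 15.8, 10.9 and 20.01 RPM in uninjured KO, a difference of -0.88 (SE 0.34, limma adjusted p 0.287). Mkl2, which encodes an MRTF coactivator, had -0.95 (0.230), and Acta2, an SRF target of smooth muscle, 0.91 (0.367). In injured muscle Acta2, Vgll3 and Ctgf had 1.06, 0.60 and -0.50 (limma adjusted p from 0.333 to 0.418).

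Slow fibre genes were given attention because Ankrd2 and Csrp3 are known to be more abundant in slow fibres. None of the 10 passed in either KO comparison with limma, while 9 and 10 of 10 estimates were higher in KO, with medians of 0.96 and 1.995 (all genes -0.18 and 0.02). Myh7, the slow myosin heavy chain gene, was at 134, 119 and 102 RPM in uninjured WT and 496, 249 and 661 RPM in uninjured KO (difference 1.88, limma adjusted p 0.0694). With DESeq2, Myh7, Tnnt1 and Tnnc1 passed in uninjured muscle (adjusted p 2.04e-09, 4.6e-05 and 0.000419), and Myh7, Tnnt1 and Tpm3 in injured muscle (0.000114, 0.00242 and 0.00318). In uninjured muscle Myh7 also passed with edgeR (adjusted p 0.0241), and Myh7, Tnnt1 and Tnnc1 with TMM scaling (0.0136, 0.0344 and 0.0439) and with the replicate block (0.00488, 0.0175 and 0.0224) in limma. Myh7 passed as well when reads were scaled outside mitochondrial genes (limma adjusted p 0.0404) and without uninjured KO replicate 2 (0.0137). In injured muscle Myh7 passed with all 12 libraries in 1 limma fit (adjusted p 0.0448), and Myh7, Tnnt1 and Tpm3 without injured KO replicate 2 (0.00876, 0.0177 and 0.00985). The summed level of the list was 1400 to 1875 RPM in uninjured WT, 1892 to 4182 RPM in uninjured KO, 403 to 1590 RPM in injured WT and 1846 to 6592 RPM in injured KO. In KO its lowest library was replicate 2 with and without injury, as for Nrap, Ankrd23 and Fhl1.

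Marker levels of other cells are given here by genotype, and their part in the members' values was not tested. No macrophage, adipocyte or smooth muscle marker passed limma in either KO comparison. Of 8 macrophage genes, 8 had a lower estimate in uninjured KO, where 36.8% of all genes had a higher one, with summed levels of 87.8 to 169 RPM in WT and 51.6 to 85.3 RPM in KO. Of 8 adipocyte genes, all 8 had a higher estimate in KO in both comparisons, against 36.8% and 52% of all genes, and the lowest adjusted p was that of Lep in uninjured muscle (limma, 0.069). Their summed levels of 1228 to 2055 RPM in uninjured WT and 1738 to 3257 RPM in uninjured KO overlapped. Smooth muscle genes summed to 2898 to 3450 RPM in uninjured WT and 5732 to 5794 RPM in uninjured KO, but without Des, which muscle fibres also express, to 446 to 623 and 513 to 626 RPM. Of 8 cardiac genes Myh6 carried the difference in the sum. It was higher in KO and passed limma in both comparisons, with differences of 6.64 in uninjured muscle (limma adjusted p 0.000206) and 6.40 in injured muscle (0.00697). The other 7 together were at 2.25 RPM or below in uninjured WT and 2.75 RPM or below in uninjured KO, and the cardiac hormone gene Nppa was at 0 in every library but injured WT replicate 1.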

How the data were processed

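RNA was measured in 12 hind limb muscle libraries and Flag-Myf6 binding in 1 myotube ChIP-seq library with 1 control. The deposited RNA tables give RPM per gene, scaled by the authors to 1000000 per library, and the authors' log2 fold change (WT over KO), p-value and q-value. MACS2 2.1.0.20140616 made the peak list at a q of 0.05, per the file headers. It gives the authors' fold enrichment, signal height (pileup) and −log10 p and q. Bowtie 1.1.0, HISAT2 2.1.0, featureCounts, DESeq2 and the builds mm10 and GRCm38.p5 are named in the submitters' processing notes. How strand and multiply matching reads were handled is not given in the sources used here, so paralogs and overlapping genes are uncertain.

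Whole reads were recovered from the RPM steps (100% of values whole within 0.1 read). limma 3.58.1 (R 4.3.3) was run on log2(RPM + 1) with a trend, for genes reaching 1 RPM in 3 or more fitted libraries. Tests were two-sided and Benjamini-Hochberg adjusted over all genes at 0.05. A check on simulated reads used the depths of the uninjured libraries and the same mean levels in each, apart from the genes set to change. It therefore does not cover differences between libraries such as those in mitochondrial share. KO against WT used its own 6 libraries, injury and interaction all 12. Changes understate those of low genes. Alternatives were DESeq2 1.42.0 and edgeR 4.0.16 on the recovered reads, other filters, scalings and a pseudocount of 0.1, a replicate block and each library left out. For injury the animal number pairs libraries, as read from the labels, and the block changed no member's call. Intervals are 95%; floors cover counting error only. P-values measure the spread between these libraries. Start sites, spans and promoters are RefSeq's (GRCm38.p6), whose chromosome coordinates match mm10. Members and gene lists were chosen with earlier results of these data known. All members are named; of other lists, called genes or the 3 with the lowest p, and per member the gene most alike over libraries, which for Xirp2 is not reported here.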

Additional observations from a re-analysis of the deposited data

Results flagged for a closer look

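No member was at odds between the genotypes, but 3 genes of the comparison lists drew attention because the injured library was lower in every WT animal and higher, if only barely, in every KO animal. The injury change in KO minus that in WT was 1.21 on the log2 scale for Tnnt1 and 1.10 for Myl2, both of slow fibres, and 0.41 for Csrp1, a relative of Csrp3. None of the 3 passed the limma interaction test, with an adjusted p of 0.9999 each. The changes of Csrp1 were -0.29, -0.03 and -0.41 in WT animals and 0.001, 0.33 and 0.17 in KO animals.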

How the results depend on the processing

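Counts of called genes moved with the fit. In uninjured muscle 35 genes became 663 with DESeq2, 55 with edgeR, 1 without a filter, 7 with at least 1 RPM in every library, 20 with a pseudocount of 0.1, 107 with TMM scaling, 199 with scaling to reads outside mitochondrial genes, 752 with the replicate block and 167 with all 12 libraries in 1 fit, and 3 to 84 with a library left out. In injured muscle 34 became 427 with DESeq2, 19 without a filter, 4 with at least 1 RPM in every library, 0 with the replicate block, 56 with all 12 libraries in 1 fit, and 0 to 2343 with a library left out. After injury in KO, 0 to 1 genes were called with a library left out. Members called in uninjured muscle were 3 with DESeq2 and 2 with the replicate block, and in injured muscle 0 to 5 with a library left out. The replicate block uses title numbers that join different animals: same-numbered KO and WT libraries had correlations of deviations of 0.037, 0.256 and 0.373 in uninjured and -0.452, -0.603 and -0.300 in injured muscle, so they were not taken as pairs. With that block Nrap (limma adjusted p 0.0127) and Xirp1 (0.0253) passed in uninjured muscle, where 1.45% of genes passed higher in KO. The number of members with a peak within 10 kb, 7, became 4 within 2 kb and 3 at a fold of at least 10. The cause of these shifts was not tested.

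Signs of small differences changed. In uninjured muscle scaling to reads outside mitochondrial genes gave -0.12 for Ankrd2 and -0.029 for Fhl1. In the KO injury change DESeq2, edgeR and TMM scaling gave -0.032, -0.027 and -0.059 for Nrap and -0.20, -0.19 and -0.18 for Flnc. In the interaction they gave -0.052, -0.050 and -0.16 for Ankrd2, DESeq2 and edgeR gave -0.092 and -0.082 for Csrp3, and scaling outside mitochondrial genes gave 0.14, 0.11 and 0.12 for Xirp2, Ky and Flnc. With a library left out, KO minus WT ranged from -0.14 to 0.23 for Ankrd2, -0.041 to 0.64 for Csrp3, -0.73 to 0.87 for Fhl1 and -0.089 to 0.54 for Flnc in uninjured muscle, and from -0.32 to 0.60 for Ankrd2 in injured muscle. The WT injury change ranged from -0.27 to 0.14 for Xirp2 and -0.50 to 0.26 for Fhl1. The KO injury change ranged from -0.44 to 0.059 for Xirp1, -0.29 to 0.24 for Xirp2, -0.15 to 1.45 for Fhl1, -0.33 to 0.71 for Nrap, -0.17 to 0.46 for Flnc and -0.19 to 1.10 for Tnni1. The interaction ranged from -0.35 to 0.57 for Ankrd2, -0.93 to 0.97 for Ankrd23, -0.15 to 0.59 for Csrp3, -0.24 to 0.35 for Xirp2, -0.042 to 1.56 for Fhl1, -0.90 to 0.14 for Nrap, -0.28 to 0.14 for Ky and -0.29 to 0.34 for Flnc. Depth limits Ankrd1 most, since 3 reads carry its value in uninjured WT replicate 2.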
